A study of Mus musculus with 47 samples.

Results

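Immediate early genes were followed in sorted cranial neural crest cells of mouse embryos, across stage, facial subpopulation and genotype. The 10 genes Fos, Fosb, Jun, Junb, Egr1, Egr2, Atf3, Ier2, Dusp1 and Klf4 were taken by symbol from a table of 38215 genes. All 10 were among the 20560 genes that passed the filter on low counts.

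Cranial neural crest cells leave the neural folds, migrate and build most of the facial skeleton. The wild-type groups were progenitors at E8.5 and, at E10.5 and E11.5, 4 subpopulations sorted by place: frontonasal process (FNP), maxillary process (Mx) and mandibular process (Md), the last 2 both from the first pharyngeal arch, and second arch (PA2). At E10.5 all 4 subpopulations were also collected as Ezh2cKO, a conditional knockout of Ezh2, and Md was collected as HoxA2OE, which overexpresses Hoxa2. At E11.5, PA2 was collected as Hoxa2TempMut, a temporal knockout of Hoxa2, and as a genotype labelled Control. Each of the 16 groups had 3 libraries, except wild-type Mx at E10.5 with 2, for 47 libraries. The sources used here do not give the Cre drivers, the alleles carried by Control or the number of embryos per library. The labels number the libraries of a group without calling them separate embryos, so each p-value measures only the spread among these samples, which may be technical. All groups shared a dissection, a digestion with trypsin at 37 °C, cell sorting and a total RNA extraction, so every level is one measured after dissociation.

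Immediate early genes are switched on within minutes of a stimulus, without new protein synthesis, when signalling kinases such as ERK and p38 act on factors already bound at their promoters. Serum response factor with its ternary complex partners binds CArG boxes, and CREB and ATF factors bind cyclic AMP response elements (CRE). Fos, Fosb, Jun and Junb encode subunits of AP-1, and Egr1 and Egr2 encode zinc finger factors. Atf3 encodes a stress-induced factor of the ATF family, Dusp1 a phosphatase that switches MAP kinases off, Ier2 a short-lived nuclear protein, and Klf4 a Krüppel-like factor. The genes are also known to respond to warming and enzyme digestion during cell isolation, so their level in sorted cells can mix the state in the embryo with a response to handling.

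Because the genes can share such sites, promoters from RefSeq on GRCm38.p6, from 250 bases before to 50 after each start site, were searched on both strands. Entries matched 8 of the 10 genes by symbol, all but Egr1 and Ier2. A gene was counted when any of its entries matched, and Egr2 had several. The share of all is per single promoter, so these rates are not like for like. The CRE letters TGACGTCA were in the promoter of Dusp1 and in 1.79% of all 32851 promoters. Their core TGACG, which the full CRE contains, was in 7 of the 8, Fos, Fosb, Junb, Egr2, Atf3, Dusp1 and Klf4, and in 20.8% of all promoters. The related letters TGACATCA were in that of Jun and in 3.62% of all. A CArG box was found for Egr2 and in 1.63% of all, and the AP-1 letters TGANTCA were in none of the 8 and in 7.81% of all. These are matches of letters, not measured binding. Sites more than 250 bases before a start site would be missed, as would any of Egr1 and Ier2. A gene without a match, such as Fos for the CArG box, may still hold such a site. The 4 windows of 100 bases below, which lie outside annotated exons, show the kinds of element present among genes that changed in at least 1 comparison. Each is written 5′ to 3′ on the strand of its gene, with the matched letters of either strand in capitals.
Fos, chr12:85473790-85473889, plus strand, capitals for the TGACG core: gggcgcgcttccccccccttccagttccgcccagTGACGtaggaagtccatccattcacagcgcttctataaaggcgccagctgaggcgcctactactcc
Jun, chr4:95052223-95052322, minus strand, capitals for TGACATCA: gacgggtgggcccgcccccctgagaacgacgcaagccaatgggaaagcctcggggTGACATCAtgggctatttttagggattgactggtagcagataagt
Dusp1, chr17:26508573-26508672, minus strand, capitals for a TGACG core and the full CRE: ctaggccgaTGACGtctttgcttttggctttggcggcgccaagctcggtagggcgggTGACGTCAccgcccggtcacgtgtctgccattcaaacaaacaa
Egr2, chr10:67537749-67537848, plus strand, capitals for a TGACG core, the CArG box and a TGACG core on the other strand: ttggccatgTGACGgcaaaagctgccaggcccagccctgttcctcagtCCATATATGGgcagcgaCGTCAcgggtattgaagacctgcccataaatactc

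Libraries held 18820510 to 49808808 counts, with a median of 30613256. Levels are in CPM, counts-per-million of the scaled library total. At E10.5, Ezh2 had 113 to 157 CPM in Ezh2cKO libraries and 350 to 405 CPM in wild-type ones. Hoxa2 stood at 92.8 to 124 CPM in HoxA2OE and at 0.248 to 0.297 CPM in wild-type Md. It had 176 to 195 CPM in Hoxa2TempMut and 268 to 269 CPM in Control, a difference of -0.54 ± 0.21 on the log2 scale that did not pass the test (adjusted p = 0.503), and it had 183 to 199 CPM in wild-type PA2, so Hoxa2TempMut lay below Control and within or near the range of wild type. The 10 markers of crest mesenchyme summed to 1192 CPM or more in every E10.5 and E11.5 library and to 238 to 323 CPM at E8.5. The HoxA2OE libraries had the lowest scaling factors of all, from 0.514 to 0.775. In 4 groups 1 library stood apart over all genes, by the chi-square per degree of freedom between libraries of a group. HoxA2OE replicate 1 had 316 and 331 against its replicates, which had 12.2 between them, E8.5 replicate 1 had 118 and 128 against 6.67, E10.5 wild-type FNP replicate 1 had 42.3 and 44.4 against 6.19, and E11.5 FNP replicate 3 had 71.3 and 65.3 against 12.1. Mitochondrial genes took 45.9% of counts in that HoxA2OE library and 28.5% in both others. For several results that rest on these 4 libraries, the values without them are also given.

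The genes differed widely in abundance. As medians over the 47 libraries per kilobase of exons, Jun stood at 18.7, Ier2 at 12.3, Dusp1 at 7.53, Fos at 5.68, Egr1 at 3.72 and Klf4 at 3.68 CPM per kilobase. Fosb stood at 1.47, Egr2 at 0.308, Atf3 at 0.273 and Junb at 0.182 CPM per kilobase. Junb had 0 to 29 counts in a library and Atf3 1 to 187, so their values carry large counting error. Jun (ENSMUSG00000052684, chr4:95049034-95052222, minus strand) shares its locus with the gene BC042782, and the libraries were not stranded, so its counts are uncertain to that extent. No other gene of the table overlaps the other 9.

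The order of the 16 groups showed 1 shared feature. Control and Hoxa2TempMut had the highest means of all groups for Fos, Fosb, Egr1, Egr2 and Dusp1, and for these 5 genes every library of both groups lay above every other library. How many of all genes tested share this order was not counted, so it is not shown to be particular to these 5. Fos means ran from 0.139 CPM at E8.5 to 61.9 CPM in Control, a ratio of 445, and those of Ier2 only from 14.9 CPM in Mx at E11.5 to 24.1 CPM in HoxA2OE, a ratio of 1.62. Of the 15 pairs of neighbours in this order, the libraries did not overlap in 5 for Klf4, 4 for Jun, 3 for Fos, 2 each for Fosb and Egr1, 1 each for Egr2, Atf3 and Dusp1, and 0 for Junb and Ier2. The rest of each order was therefore not resolved by 2 or 3 libraries a group. The plot of levels by library shows these orders.

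**Figure D1:**
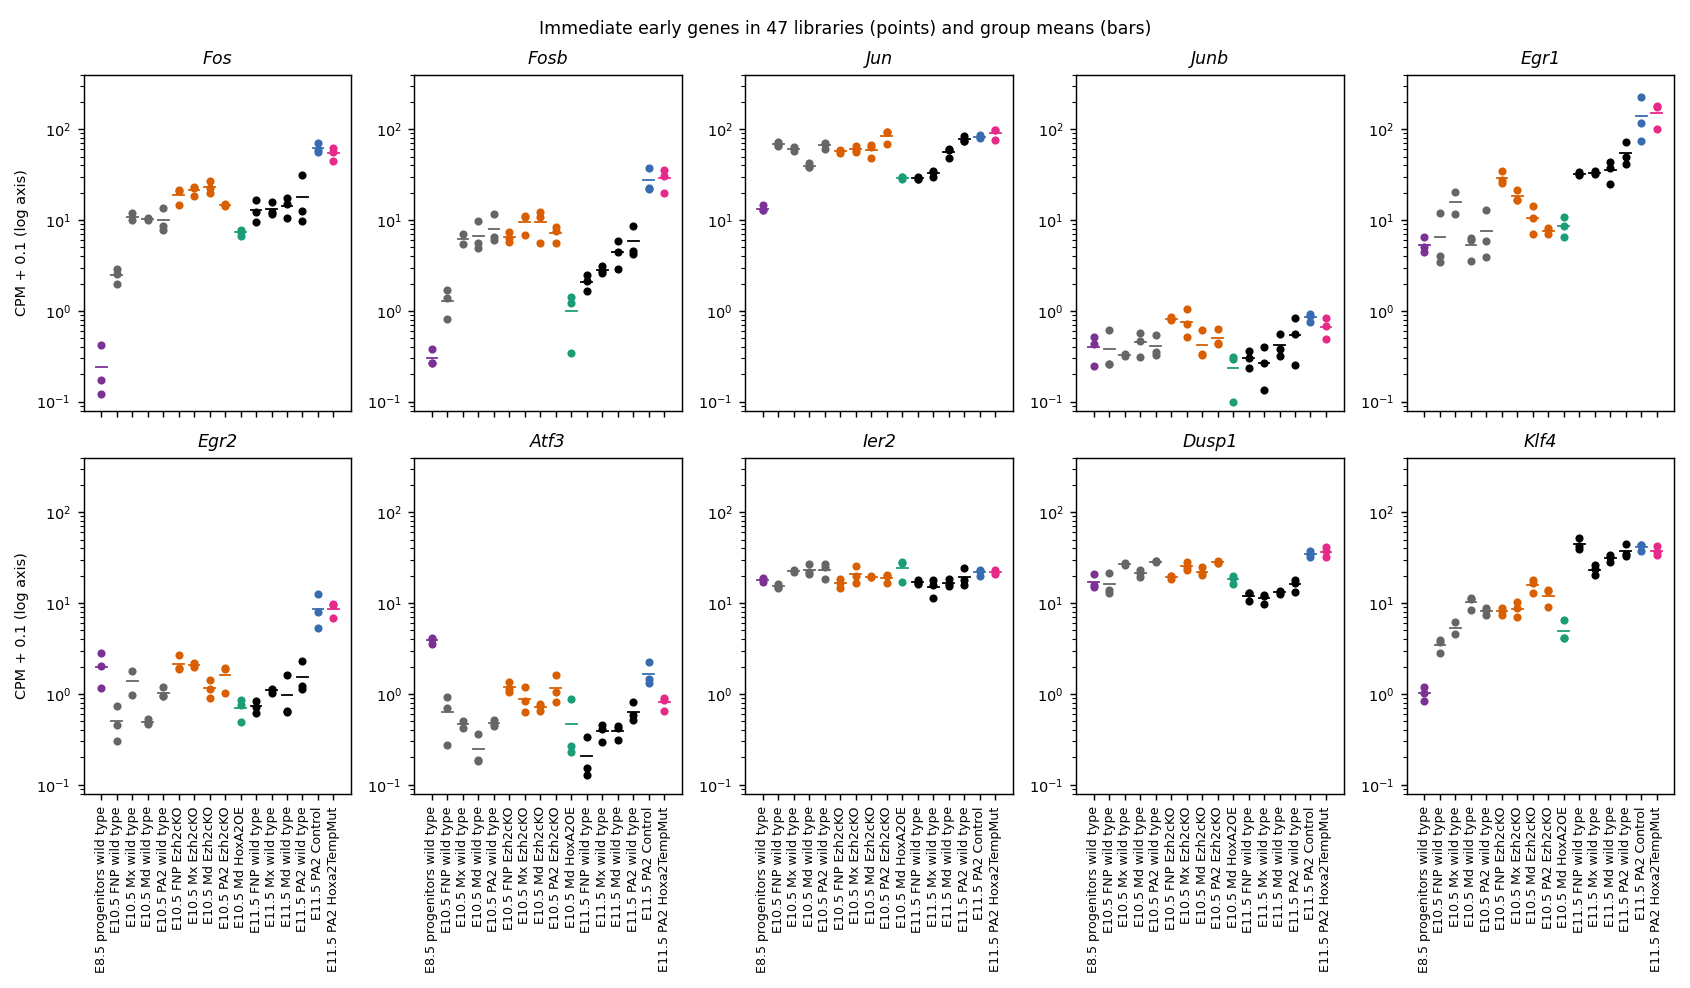
Level of each of the 10 genes in each of the 47 libraries (points) with group means (bars), on a log axis of CPM plus 0.1, groups on the x axis. Fos, Fosb, Egr1, Egr2 and Dusp1 are highest in Control and Hoxa2TempMut, Klf4 rises with stage, and Ier2 stays between 11.2 and 28.1 CPM.

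Loss of Ezh2, the methyltransferase of Polycomb repressive complex 2, was compared with wild type at E10.5. Averaged over the subpopulations, 8 of the 10 genes rose and 0 fell, against 16.1% of all genes tested that rose and 14.7% that fell. The median log2 fold change of the 10 was 0.82, beside -0.02 over all genes. Most calls were made in FNP, where 5 of the 10 rose and 0 fell (4.97% and 1.83% of all genes). In Mx 2 rose and 0 fell (6.85% and 3.41% of all), in Md 4 rose and 0 fell (6.69% and 2.18% of all), and in PA2 3 rose and 0 fell (6.64% and 2.53% of all). The share of mitochondrial counts moved with the genotype. It was 24.9% to 28.3% in Ezh2cKO and 21.8% to 22.6% in wild type for Mx, 25.5% to 31% and 19.9% to 24% for Md, 26.7% to 29.9% and 22.2% to 23.6% for PA2, and overlapped at 29.3% to 32.4% and 28.2% to 33.6% for FNP. Its part in the differences was not tested beyond leaving those genes out, which ended 1 call within a subpopulation, that of Klf4 in PA2 (adjusted p = 0.0503). In bulk samples like these, fewer cells that express a gene and less RNA per cell cannot be told apart.

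Among the AP-1 genes, Fos (ENSMUSG00000021250, chr12:85473890-85477273) had 20.8, 21.1 and 14.5 CPM in the FNP libraries of Ezh2cKO and 1.90, 2.46 and 2.80 CPM in wild type. All mutant libraries lay above all wild-type libraries. The log2 fold change was 2.96 ± 0.31 (SE; adjusted p = 2.87e-09, edgeR's quasi-likelihood test with Benjamini-Hochberg adjustment). In Mx, Fos had 18.5, 22.3 and 23.3 CPM in Ezh2cKO and 11.7 and 9.94 CPM in wild type, and it rose by a log2 fold of 0.98 ± 0.31 (adjusted p = 0.0333). In Md it had 26.8, 22.4 and 19.8 CPM in Ezh2cKO and 10.1, 10.52 and 9.87 CPM in wild type, and it rose by 1.18 ± 0.28 (adjusted p = 0.00312). In PA2 it had 14.4, 14.8 and 14.3 CPM against 7.602, 8.43 and 13.4 CPM. These PA2 groups did not overlap either, but the difference of 0.57 ± 0.28 did not pass the test (adjusted p = 0.228). The effect of the genotype differed between subpopulations for 3 of the 10 genes, against 1.63% of all genes tested (F test of 3 contrasts). Fos was 1 of them (adjusted p = 0.00115, and 0.0141 without wild-type FNP replicate 1). Wild-type FNP, the group with the lowest Fos at E10.5, was the one with the largest increase, while the mutant levels lay between 14.3 and 26.8 CPM in all 4 subpopulations. The same wild-type FNP libraries also enter the FNP stage difference and the E10.5 comparison of subpopulations below. Those results are therefore not independent of this one.

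Fosb (chr7:19302721-19310045) had 6.24, 5.64 and 7.23 CPM in FNP of Ezh2cKO and 1.58, 1.30 and 0.716 CPM in wild type. Every mutant library was higher, and the log2 fold change was 2.42 ± 0.39 (adjusted p = 1.87e-05). Elsewhere Fosb did not pass the test, with differences of 0.63 ± 0.36 for Mx, 0.50 ± 0.33 for Md and -0.16 ± 0.33 for PA2, and the effect differed between subpopulations (adjusted p = 0.0122; 0.0823 without wild-type FNP replicate 3). Jun moved on another pattern. It had 67.5, 62.8 and 48.0 CPM in Md of Ezh2cKO against 38.0, 42.9 and 38.4 CPM in wild type, without overlap, and rose by 0.58 ± 0.11 (adjusted p = 0.000266). In PA2 Jun rose by 0.34 ± 0.11 (adjusted p = 0.0393), a call lost in 5 of 6 leave-one-library-out fits. In Mx the difference was -0.01 ± 0.12 and in FNP -0.25 ± 0.11, neither past the test (adjusted p = 0.99 and 0.186). The effect on Jun also differed between subpopulations (adjusted p = 0.00277). Junb passed the test only on average (0.76 ± 0.28, adjusted p = 0.0366), at group means of 0.230 to 0.719 CPM. That call was lost in 10 of the 23 leave-one-library-out fits, among them that without wild-type FNP replicate 1 (adjusted p = 0.0601). Without that library, 7 of the 10 genes passed on average.

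Egr1 (chr18:34859823-34864984), a zinc finger factor induced by growth factor signalling, had 34.4, 27.6 and 25.4 CPM in FNP of Ezh2cKO and 11.8, 3.96 and 3.35 CPM in wild type. The groups did not overlap, and wild-type replicate 1 was the highest of its group. The log2 fold change was 2.21 ± 0.38 (adjusted p = 5.05e-05), and 2.99 without that library. In the other subpopulations the differences in Egr1 ran from 0.04 ± 0.39 in PA2 to 1.02 ± 0.40 in Md and did not pass the test. Whether the effect on Egr1 differed between subpopulations was just outside the threshold (adjusted p = 0.0504) and inside it without wild-type FNP replicate 1 (adjusted p = 0.00182). Egr2 (chr10:67535475-67542188), known for its role in hindbrain segments and Schwann cells, had 1.82, 1.77 and 2.57 CPM in FNP of Ezh2cKO against 0.633, 0.205 and 0.358 CPM. All mutant libraries were higher, by a log2 fold of 2.38 ± 0.43 (adjusted p = 0.000129). In the others the differences in Egr2 were 0.61 ± 0.40 to 1.41 ± 0.50, none past the test, and a difference between subpopulations was not detected (adjusted p = 0.398).

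Atf3 (chr1:191170296-191183340) had 0.632, 0.542 and 0.667 CPM in Md of Ezh2cKO against 0.0849, 0.0825 and 0.265 CPM. The groups did not overlap, and Atf3 rose by 2.13 ± 0.63 (adjusted p = 0.0249) on counts of 13 to 14 against 2 to 5 per library. In PA2 it rose by 1.48 ± 0.48 (adjusted p = 0.0402), and the FNP and Mx differences of 1.03 ± 0.43 and 1.13 ± 0.52 did not pass the test. The Atf3 calls were not stable: leaving out 1 library ended that for Md in 4 of 6 fits and that for PA2 in 5 of 6. Klf4 (chr4:55527143-55532466) was the only 1 of the 10 to rise in each subpopulation. In FNP it had 7.98, 8.82 and 7.37 CPM in Ezh2cKO against 2.73, 3.79 and 3.58 CPM, without overlap, and rose by 1.25 ± 0.20 (adjusted p = 1.24e-05). For Mx the increase was 0.70 ± 0.21, for Md 0.63 ± 0.18 and for PA2 0.56 ± 0.18 (adjusted p = 0.0237, 0.0182 and 0.0455). Outside FNP these calls were not stable: leaving out 1 library ended the call for Klf4 in 3 of 5 fits for Mx, 3 of 6 for Md and 5 of 6 for PA2.

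Dusp1 (chr17:26505590-26508519) and Ier2 (chr8:84661331-84662852) did not pass the test in any subpopulation or on average with all libraries. Without wild-type FNP replicate 1, which stood apart, Dusp1 passed in FNP at 0.54 (adjusted p = 0.0118). The average differences were 0.06 for Dusp1, with a 95% interval from -0.09 to 0.20, and -0.14 for Ier2, from -0.31 to 0.03. Calls within a subpopulation rested on few libraries. In Mx, 0 genes passed without wild-type replicate 2 or Ezh2cKO replicate 2 and 1 passed without any other single library. In PA2, 0 passed without any 1 of the wild-type libraries. In PA2, Ezh2cKO without replicate 1 left 0 and without replicate 2 left 1. In Md, 2 to 3 passed whichever library was left out, against 4 with all, and Ezh2cKO without replicate 1 left 2. In FNP, at least 5 passed whichever library was left out.

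**Figure D2:**
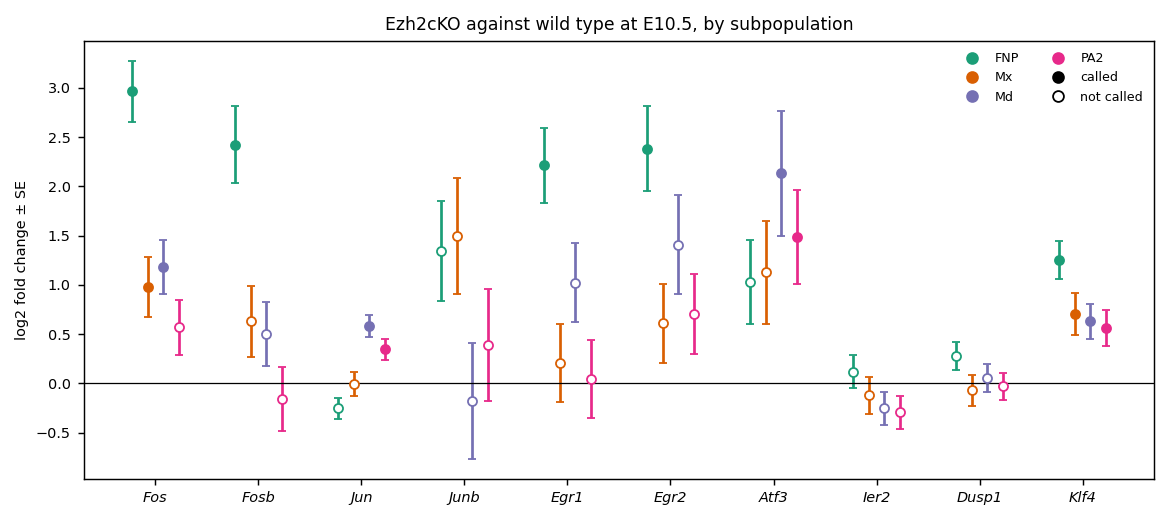
Log2 fold change of Ezh2cKO against wild type at E10.5 with its standard error (y axis) for each gene (x axis) in FNP, Mx, Md and PA2 (colours); filled points passed an adjusted p of 0.05. FNP holds the highest points for Fos (2.96), Fosb (2.42), Egr1 (2.21), Egr2 (2.38) and Klf4 (1.25), and the points of Ier2 and Dusp1 lie near 0.

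Other genes of the same response were read from lists drawn from general knowledge. The lists and the 10 genes were chosen with earlier results of these data known, so their counts give no independent support. Of 30 other immediate early genes tested, 14 rose and 5 fell in Ezh2cKO on average, with a median log2 fold change of 0.21. Those with at least 5 CPM that rose most were Btg2, an antiproliferative gene, by 0.63 ± 0.08, and the orphan nuclear receptor gene Nr4a2, by 0.46 ± 0.07, while Ctgf, a matricellular protein gene, fell by 0.46 (SE 0.11). Of 10 relatives of AP-1 and ATF tested, 3 rose and 0 fell. Of 11 targets of ERK feedback 0 rose and 3 fell, among them Dusp6 by 0.42 ± 0.08 on the log2 scale, and of 13 upstream kinases and factors 0 rose and 5 fell. The 11 heat shock genes were split, with 4 higher and 5 lower, and of 7 genes of the integrated stress response 0 rose and 1 fell. Markers of other cells moved with the genotype as well. Summed neuron markers, all 7 detected in both groups, stood at 19.3 to 24.1 CPM in FNP of Ezh2cKO and 10.6 to 11.1 CPM in wild type, and 5 of 7 rose on average. Neural tube markers rose for 4 of 7. Markers of hindbrain rhombomeres 3 and 5, a domain in which Egr2 is known to act, rose for 4 of 6 in FNP and for 3 of 6 on average, where 1 fell. The list, with Hoxb1 and Hoxb2 at 0 counts in wild-type FNP, summed there to 222 to 237 CPM in Ezh2cKO and 167 to 239 CPM in wild type. Erythroid markers fell for 3 of 5 tested on average and for 3 of 5 in FNP, with sums of 19.4 to 20.3 CPM in FNP of Ezh2cKO and 24.9 to 50.4 CPM in wild type. Epithelial markers rose for 4 of 8 and fell for 1, with sums of 12.9 to 15.2 CPM in FNP of Ezh2cKO, where Krt5 was at 0 counts, and 7.19 to 15.9 CPM in wild type. In the others these sums did not overlap, at 9.01 to 10.2 against 2.89 to 4.25 CPM for Mx, 9.54 to 12.5 against 3.98 to 4.46 CPM for Md, and 12 to 13.6 against 4.07 to 5.20 CPM for PA2. Their part in the results for the 10 genes was not tested.

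In PA2 at E11.5, the genotype labelled Control was compared with wild type, which share stage and subpopulation. Control was higher for 6 of the 10 genes and lower for 0, against 10.1% of all genes tested that were higher and 12% that were lower. The median log2 fold change of the 10 was 1.24, beside -0.01 over all genes.

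Fos had 58.8, 71.1 and 55.8 CPM in Control and 12.5, 30.9 and 9.54 CPM in wild type. The groups did not overlap, and wild-type replicate 2 stood at more than the sum of the other wild-type libraries. The log2 fold change was 1.81 ± 0.27 (adjusted p = 2.57e-06). Fosb had 22.0, 37.0 and 22.6 CPM in Control and 4.47, 8.58 and 4.08 CPM in wild type. All Control libraries were higher, by a log2 fold of 2.25 ± 0.32 (adjusted p = 1.47e-06). Egr2 had 5.27, 7.80 and 12.4 CPM in Control and 1.12, 2.21 and 1.03 CPM in wild type. This was the largest difference of the 10, without overlap, at 2.54 ± 0.33 (adjusted p = 2.86e-07).

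Egr1 had 74.3, 117 and 225 CPM in Control and 48.7, 72.1 and 41.2 CPM in wild type. The lowest Control library was close to the highest wild-type library, and the difference of 1.36 ± 0.34 (adjusted p = 0.00288) became 0.82 without Control replicate 3 and then did not pass the test (adjusted p = 0.0965). Atf3 had 1.36, 1.21 and 2.13 CPM in Control against 0.714, 0.485 and 0.418 CPM, without overlap, and was higher by 1.53 ± 0.40 (adjusted p = 0.00424). Dusp1, the phosphatase, had 32.4, 34.96 and 37.5 CPM in Control against 16.7, 18.0 and 13.3 CPM. Its groups were well apart, with a log2 fold change of 1.13 ± 0.14 (adjusted p = 1.29e-07). Jun, Ier2 and Klf4 did not pass the test, with differences of 0.08 ± 0.11, 0.16 ± 0.16 and 0.14 ± 0.17, and neither did Junb at 0.74 ± 0.46. The 95% intervals leave room for a difference of Jun between -0.14 and 0.30 and of Klf4 between -0.19 and 0.48.

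Of the 30 other immediate early genes, 8 were higher in Control and 1 was lower. Zfp36, which encodes an mRNA decay factor, was higher by 1.59 ± 0.20, Socs3, a cytokine signalling inhibitor, by 0.90 ± 0.15 and Cyr61, a matricellular protein gene, by 0.83 ± 0.16. Of the 11 ERK feedback genes 3 were higher and 0 lower, led by Spry2 at 1.02 ± 0.24 among those with at least 5 CPM. Of the 13 upstream kinases and factors 3 were higher and 0 lower, namely Map2k1 by 0.67 ± 0.09, Srf by 0.57 ± 0.14 and Elk1 by 0.36 ± 0.11. Of the AP-1 and ATF relatives 2 were higher and 0 lower, of the 11 heat shock genes 1 was higher and 2 were lower, and of the 7 integrated stress genes 1 was higher and 2 were lower. Markers of other cells also differed between these groups. All 6 muscle markers were detected in both, summed to 22.7 to 42.6 CPM in Control against 2.76 to 8.82 CPM in wild type, and 5 of them were higher, led by Actc1 at 2.52 ± 0.31. Leukocyte markers summed to 12.7 to 16.9 CPM in Control, with Tyrobp at 0 counts, against 7.24 to 8.79 CPM, and 1 of 4 tested was higher. Neuron markers summed to 16.8 to 17.8 CPM against 9.74 to 12 CPM, with 3 of 7 higher. Endothelial markers summed to 5.02 to 7.18 CPM against 11.7 to 13.9 CPM, with 3 of 7 lower, and 4 of 10 markers of crest mesenchyme were lower and 1 was higher. Library totals were 32335220 to 35377240 counts in Control and 27800541 to 30655582 in wild type. Neither the cell mixture nor depth was tested as a part of these differences, and how the genotype labelled Control differs from wild type in collection or strain cannot be told apart from it here.

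Hoxa2TempMut was compared with Control, a comparison in which the lower Hoxa2 itself did not pass the test. By edgeR's quasi-likelihood test with Benjamini-Hochberg adjustment, 0 of the 10 genes passed, as did 0 with DESeq2, against 0.623% of all genes tested in either direction. At an unadjusted p under 0.05, 1 of the 10 passed, Atf3. The median log2 fold change of the 10 was 0.01, and that of all genes was also 0.01. Fos had 61.8, 56.7 and 44.5 CPM in Hoxa2TempMut, which overlapped Control, and differed by -0.19 with a 95% interval from -0.70 to 0.33. Egr1 had 101.4, 176 and 178 CPM, inside the range of Control, with a difference of 0.13 and an interval from -0.54 to 0.80. Fosb had 35.1, 30.8 and 19.9 CPM and Egr2 6.82, 9.57 and 9.41 CPM, both overlapping Control. Atf3 had 0.554, 0.764 and 0.808 CPM, all below Control, but its difference of -1.14 ± 0.38 did not pass (adjusted p = 0.285). Of the 30 other immediate early genes 0 passed in either direction. Muscle markers summed to 16.3 to 19.6 CPM in Hoxa2TempMut, below Control and above wild type. Control thus serves both comparisons, and the same 3 libraries set the reference here and the difference from wild type above.

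HoxA2OE was compared with wild-type Md at E10.5. Of the 10 genes, 0 were higher and 3 were lower, against 27.1% of all genes that were higher and 27.8% that were lower. The count of lower genes is near its background, and that of higher genes is below its own. Fosb had 0.248, 1.13 and 1.31 CPM in HoxA2OE and 5.43, 9.66 and 4.83 CPM in wild type. All HoxA2OE libraries were lower, and Fosb fell by 2.80 on the log2 scale (SE 0.40, adjusted p = 1.64e-07). Klf4 had 6.40, 4.05 and 4.04 CPM against 11.04, 11.2 and 8.22 CPM, without overlap, and fell by 1.10 (SE 0.19, adjusted p = 5.63e-06). Jun had 28.0, 29.9 and 30.0 CPM against 38.0, 42.9 and 38.4 CPM, also without overlap, and fell by 0.44 (SE 0.11, adjusted p = 0.00106). Fos, the partner of Jun in AP-1, had 7.77, 7.33 and 6.51 CPM against 10.1, 10.52 and 9.87 CPM, and its difference of -0.50 ± 0.28 did not pass (adjusted p = 0.136). Egr1 had 6.36, 10.8 and 8.45 CPM against 3.48, 5.86 and 6.26 CPM, with a difference of 0.73 ± 0.40 in the other direction that did not pass (adjusted p = 0.116). Of the 30 other immediate early genes 9 rose, among them the growth regulator gene Myc by 1.14 ± 0.17, and 9 fell, among them Ier5l by 2.43 (SE 0.42) and Gadd45g by 1.35 (SE 0.25). Jund, an AP-1 subunit gene outside the 10, fell by 1.89 (SE 0.21), and Srf, the gene of serum response factor, fell by 0.99 (SE 0.14). HoxA2OE replicate 1, which stood apart, was the lowest of its group for Fosb and the highest for Klf4. Without it Fosb fell by 2.46, Klf4 by 1.35 and Jun by 0.43, and all 3 passed (adjusted p = 4.06e-06, 6.11e-07 and 0.00487). Mitochondrial genes took 45.9% of its counts, 28.5% in the other HoxA2OE libraries and 19.9% to 24% in wild-type Md, and totals were 45626768 to 49808808 counts against 18820510 to 22603841. With these genes left out of counts and totals, the same 3 of the 10 passed. Erythroid markers summed to 10.4 to 13.3 CPM in HoxA2OE, with Hba-a1 at 0 counts, against 219 to 283 CPM, and 5 of 5 tested were lower. The part of depth, RNA composition and cell mixture in the differences was not tested.

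**Figure D3:**
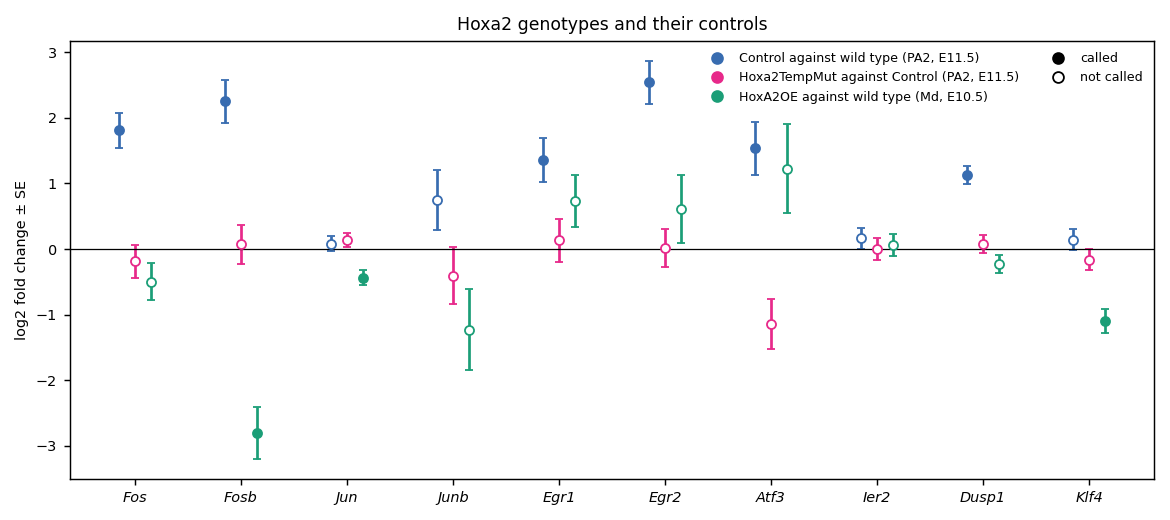
Log2 fold change with its standard error (y axis) of each gene (x axis) for Control against wild-type PA2, Hoxa2TempMut against Control PA2 and HoxA2OE against wild-type Md (colours); filled points passed an adjusted p of 0.05. The 6 filled points of Control lie between 1.13 and 2.54, no point of Hoxa2TempMut is filled, and Fosb in HoxA2OE lies at -2.80.

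From E8.5 to E10.5 in wild type, 5 of the 10 genes rose and 2 fell, against 32.1% of all genes tested that rose and 36.3% that fell. Fos was nearly silent in progenitors, with 3, 15 and 1 counts in the libraries, or 0.0727, 0.324 and 0.021 CPM. At E10.5 it had 1.90 CPM at the lowest, 9.87 CPM at the median and 13.4 CPM at the highest of 11 libraries. Every E10.5 library was higher, by a log2 fold of 5.63 ± 0.42 (adjusted p = 3.45e-15), a value that ran from 5.14 to 7.22 as single libraries were left out and was 5.36 without E8.5 replicate 1, which stood apart. Fosb, with 0.170, 0.280 and 0.168 CPM at E8.5, rose by 4.40 ± 0.44 (adjusted p = 1.33e-11). Jun, with 12.8, 12.7 and 14.4 CPM at E8.5, was by contrast well expressed there and rose by 2.11 ± 0.10 (adjusted p = 3.13e-21). Klf4, with 0.727, 0.928 and 1.09 CPM at E8.5, rose by 2.75 ± 0.19 (adjusted p = 6.71e-16), and Dusp1 rose by 0.40 ± 0.11 (adjusted p = 0.0021). All 7 calls passed without E8.5 replicate 1.

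The genes that fell were Atf3 and Egr2. Atf3 had 3.88, 4.03 and 3.46 CPM at E8.5, more than in any other library of the series, and fell by 3.57 (SE 0.28, adjusted p = 1.82e-14). Egr2 had 1.07, 2.72 and 1.91 CPM at E8.5 and 0.205 to 1.68 CPM at E10.5, which overlapped, and fell by 1.54 (SE 0.28, adjusted p = 7.24e-06). Egr1, Ier2 and Junb did not pass the test. Of the 30 other immediate early genes 12 rose and 9 fell, and among those with at least 5 CPM Nr4a3 fell by 4.98 (SE 0.22) while Cyr61 and Zfp36 rose by 2.58 ± 0.16 and 2.34 ± 0.19. The E8.5 libraries also carried markers of other cells. Neural tube markers summed to 397 to 475 CPM there and to 67 to 161 CPM in the E10.5 libraries, and 7 of 7 fell. Endothelial markers summed to 137 to 152 against 1.94 to 7.52 CPM and epithelial markers to 140 to 158 against 2.89 to 15.9 CPM, and all 7 and all 8 fell. Glial markers, with Egr2 known in that lineage, summed to 119 to 128 CPM at E8.5, to 93.4 to 114 CPM in Mx at E10.5 and to at most 29.4 CPM in the other subpopulations. Their part in the stage differences was not tested.

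From E10.5 to E11.5 in wild type, 4 of the 10 genes rose and 3 fell on average, against 33.7% of all genes that rose and 30.1% that fell. Klf4 rose in every subpopulation and most in FNP, from 2.73, 3.79 and 3.58 CPM to 42.6, 39.7 and 52.1 CPM. No wild-type E10.5 library reached the lowest E11.5 library of any subpopulation, and the average log2 fold change was 2.42 ± 0.10 (adjusted p = 1.11e-23). Egr1 rose from 3.35 to 20.05 CPM over the E10.5 libraries to 24.7 to 72.1 CPM at E11.5, without overlap, by 2.27 ± 0.20 (adjusted p = 3.44e-13). Fos rose by 1.01 ± 0.15 (adjusted p = 1.34e-07) and Egr2 by 0.53 ± 0.22 (adjusted p = 0.0392), the latter lost in 12 of 23 leave-one-library-out fits. Dusp1 fell by 0.80 (SE 0.07, adjusted p = 1.48e-12), Jun by 0.35 (SE 0.06, adjusted p = 8.89e-07) and Ier2 by 0.30 (SE 0.08, adjusted p = 0.00241). Of the 30 other immediate early genes 11 rose, among them the kinase genes Plk2 by 1.67 ± 0.09 and Sgk1 by 0.96 ± 0.08, and 10 fell, among them Zfp36 by 0.95 (SE 0.10). Of the 10 AP-1 and ATF relatives 4 rose, with Fosl2 at 2.12 ± 0.14, and 5 fell, of which Jund fell by 1.08 (SE 0.11). Markers of other cells moved with the stage. Endothelial markers rose for 5 of 7, epithelial markers for 5 of 8 and muscle markers for 3 of 6, while neuron markers fell for 5 of 7 and rose for 2, erythroid markers fell for 4 of 5 tested and glial markers for 4 of 6. Endothelial sums were 1.94 to 7.52 CPM at E10.5 and 4.74 to 22.7 CPM at E11.5, and neuron sums 10.54 to 177 CPM and 9.74 to 70.1 CPM. Mitochondrial genes took 19.9% to 33.6% of counts at E10.5 and 11.7% to 19.5% at E11.5, without overlap. The part of these in the stage differences was not tested beyond leaving mitochondrial genes out.

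Within subpopulations, 6 of the 10 passed for FNP (42.6% of all genes) and 6 for Mx (38.3%). For Md 5 passed (38.3%) and for PA2 4 passed (39.4%), so these counts are close to the background or a little above it. For 6 genes the stage effect itself differed between subpopulations, against 15.6% of all genes. That count was 3 without E11.5 FNP replicate 1 and 4 without E11.5 FNP replicate 3, which stood apart. Jun showed the clearest split. In FNP it had 67.6, 65.6 and 71.5 CPM at E10.5 and 28.0, 28.5 and 29.8 CPM at E11.5, and it fell by 1.25 (SE 0.11). In Mx it fell by 0.89 (SE 0.12), in Md it rose by 0.49 ± 0.11 from 38.0, 42.9 and 38.4 to 59.7, 48.6 and 58.7 CPM, and in PA2 the difference of 0.23 ± 0.11 did not pass (adjusted p = 0.0875). Fos rose by 2.41 ± 0.31 in FNP, from 1.90, 2.46 and 2.80 to 12.3, 9.35 and 16.7 CPM. The E10.5 libraries here are also the wild-type reference for Ezh2cKO in FNP. In Mx and Md the differences in Fos of 0.28 ± 0.30 and 0.49 ± 0.28 did not pass. In PA2 Fos passed at 0.85 ± 0.28 (adjusted p = 0.0122), but E11.5 PA2 replicate 2 carried it, since without that library the difference was 0.18 (adjusted p = 0.626). For Klf4 the increase was 3.73 ± 0.20 (FNP), 2.15 ± 0.21 (Mx), 1.62 ± 0.18 (Md) and 2.21 ± 0.18 (PA2). Atf3 fell in FNP by 2.23 (SE 0.57, adjusted p = 0.00158) on counts of 1 to 25 per library and did not pass elsewhere. Leaving out 1 library moved this value between -1.73 and -3.64, the latter without E11.5 FNP replicate 3, which stood apart. Dusp1 fell in FNP by 0.42 (SE 0.14, adjusted p = 0.0164), but without E10.5 FNP replicate 1 the difference was -0.15 (adjusted p = 0.408).

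**Figure D4:**
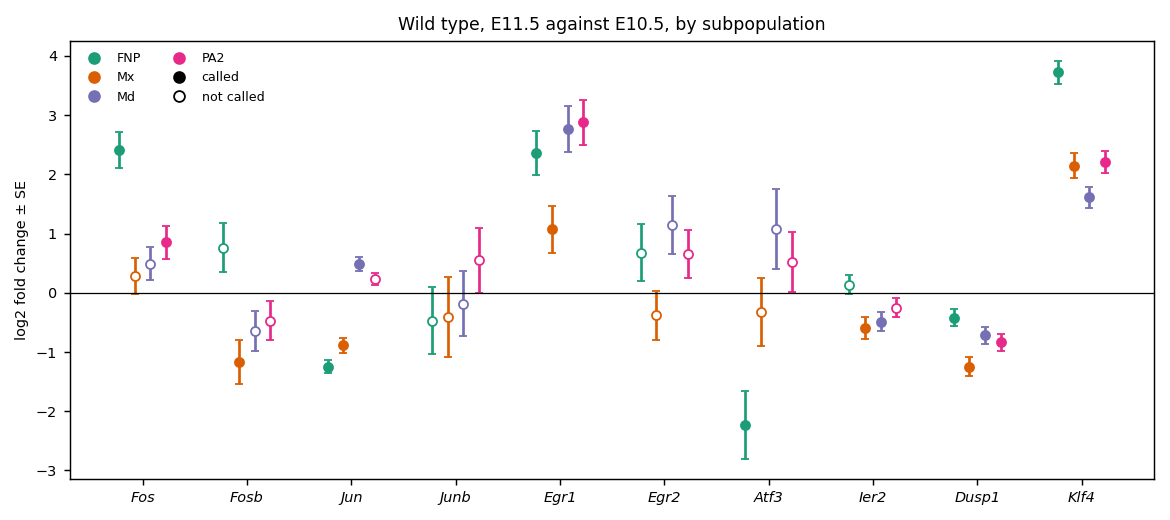
Log2 fold change of wild type at E11.5 against E10.5 with its standard error (y axis) for each gene (x axis) in FNP, Mx, Md and PA2 (colours); filled points passed an adjusted p of 0.05. Jun is negative in FNP (-1.25) and Mx (-0.89) and positive in Md (0.49), Fos is highest in FNP (2.41), and Klf4 is positive in all 4.

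Between the wild-type subpopulations of 1 stage, 8 of the 10 genes differed at E10.5 (27% of all genes) and 5 at E11.5 (29.4% of all). Without E10.5 FNP replicate 1, which stood apart, 7 differed at E10.5, as Ier2 no longer passed (adjusted p = 0.0721). FNP at E10.5 had the lowest Fos, Fosb and Klf4 of the 4, with Fos at 1.90 to 2.80 CPM against 7.602 to 13.4 CPM in the arches (adjusted p = 1.90e-06 over the 4). Fosb stood at 0.716 to 1.58 CPM in FNP and 4.83 to 11.55 CPM in the arches (adjusted p = 2.17e-06). Egr1 had its highest mean in Mx, at 20.05 and 11.4 CPM (adjusted p = 0.00897), but without Mx replicate 1 the difference did not pass (adjusted p = 0.36). Mx at E10.5 was also the wild-type group with the highest neuron markers, summed to 152 to 177 CPM against 10.54 to 14.8 CPM in the other subpopulations at that stage, and their part was not tested. At E11.5 Fos did not pass the test of a difference between the subpopulations (adjusted p = 0.451), with all libraries between 9.35 and 30.9 CPM. Jun did, at 74.6 to 84.5 CPM in PA2, 48.6 to 59.7 CPM in Md and 28.0 to 34.3 CPM in FNP and Mx (adjusted p = 1.10e-14). PA2 and Md lay apart from each other and from the rest, and FNP ended where Mx began.

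Libraries of 1 group differed more for several of these genes than for most. The standard deviation about the group means, in log2 of CPM plus 1 on 31 degrees of freedom, was 0.21 at the median of the 10 genes and 0.16 over all genes tested. Among genes with a mean of at least 5 CPM the medians were 0.21 for 7 of the 10 and 0.15 for all 11276. Egr1 had the largest value at 0.46, above 99.8% of all genes tested, followed by Fosb at 0.37 (99.4%), Fos at 0.31 (98.3%) and Egr2 at 0.28 (96.1%). Jun at 0.13 (33.8%), Dusp1 at 0.17 (56.6%) and Ier2 at 0.21 (79.3%) were less unusual. In some groups 1 library was high for many of the genes at once. E11.5 PA2 replicate 2 was the highest of its group for 9 of the 10 genes, with a mean deviation of 0.35, and replicate 3 was the lowest for 9 of the 10. E10.5 PA2 replicate 3, E10.5 Md Ezh2cKO replicate 1 and E11.5 Md replicate 1 were each highest for 7 of the 10, and E11.5 FNP replicate 3 and E11.5 Mx replicate 2 for 8 of the 10. Over the 47 libraries the deviations from the group means correlated at r = 0.58 for Egr1 with Egr2, 0.51 for Fos with Fosb and 0.62 for Jun with Klf4, but at 0.27 for Fos with Egr1 and -0.43 for Fosb with Atf3. These are descriptions, since all genes of a library share its depth and scaling. The share of all genes highest in the same libraries was not counted, so these counts are not shown to be particular to the 10.

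**Figure D5:**
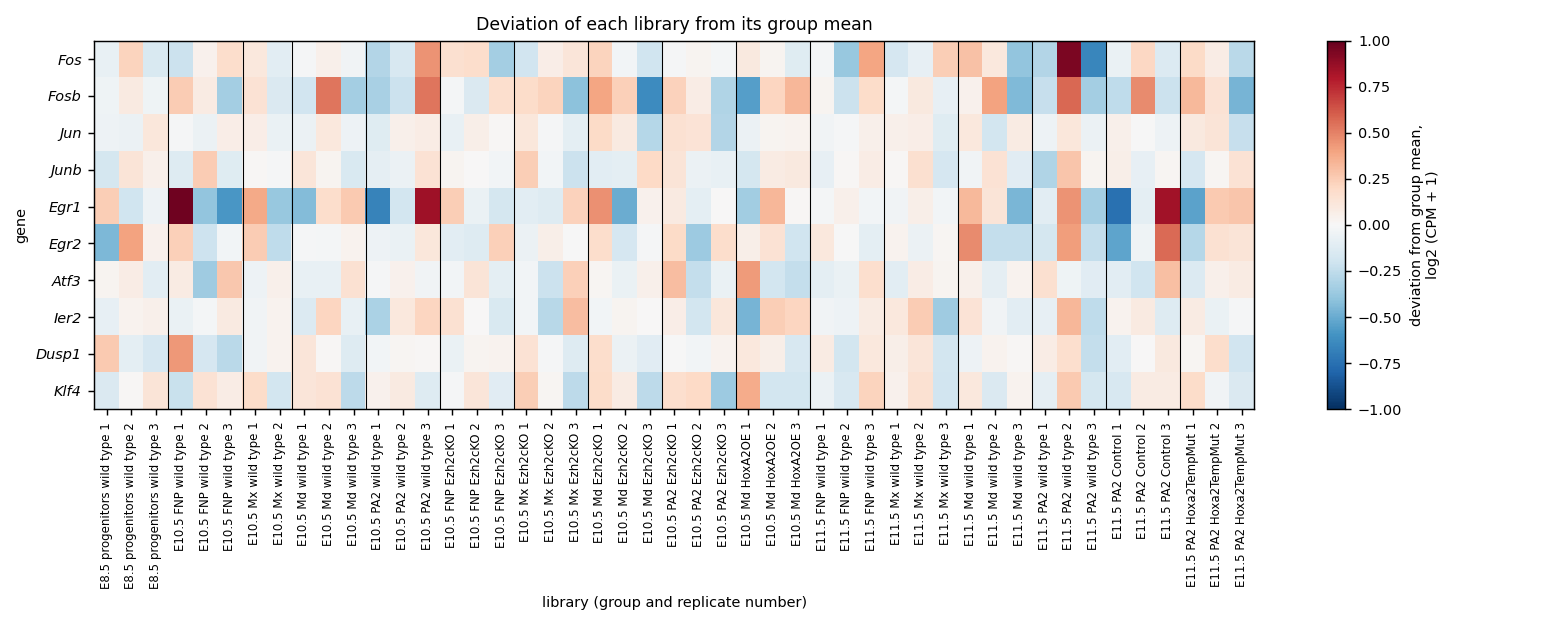
Deviation of each library from its group mean in log2 of CPM plus 1 (colour) for each gene (rows) and each of the 47 libraries (columns, grouped by lines). E11.5 PA2 wild-type replicate 2 is the highest library of its group for 9 of the 10 genes, and the rows of Egr1, Fosb and Fos show the strongest colours.

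Over the 47 libraries, the level of each gene was set against the 11269 other genes with a mean of at least 5 CPM, by Pearson's r of log2 of CPM plus 1. Group differences and shared library scaling enter these values, so they describe likeness of pattern only. The genes most like Fos were Zfp57 (r = 0.88), Cacna2d1 (0.88), Pou6f1 (0.87), Cyr61 (0.86) and Kcnmb4 (0.86). For Egr1 they were led by Prkce (0.88) and Egfl6 (0.87), for Egr2 by Btg2 (0.84) and Gm17103 (0.84), and for Jun by B930095G15Rik (0.88) and Hivep1 (0.87). Klf4 had the closest followers, Tnc (0.94), Pde7b (0.93) and Adam22 (0.93). For Junb the highest r was 0.65 (Gm5815). Among the 10 themselves, Fos and Fosb were closest (r = 0.87), and Atf3 ran against Klf4 (r = -0.39).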

How the data were processed

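Total RNA of sorted cranial neural crest cells was sequenced in 47 unstranded libraries, per the labels' protocols. The deposited table holds raw counts, 1 value for each gene and library, per the file headers; reads were demultiplexed with bcl2fastq 2.17 and GRCm38 (mm10) is the genome named, per the submitters' processing notes. No aligner, counter or annotation release is named in the sources used here. All 22 repeated column names held identical values and were used once.

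Genes passed filterByExpr on the groups, at a minimum count of 10 and a minimum total of 15, and entered edgeR 4.0.16 (R 4.3.3) with a mean per group over all 47 libraries, TMM scaling and 31 residual degrees of freedom. Each comparison used edgeR's quasi-likelihood test with Benjamini-Hochberg adjustment over 20560 genes and a threshold of 0.05. Standard errors come from the F statistic. CPM use the TMM-scaled total. The fit was tested on simulated data for the averaged Ezh2cKO comparison only. The simulation gave every gene the same spread beyond counting error and changed only genes of higher count. It therefore does not cover genes of larger spread, such as Egr1, or of low counts, such as Junb. DESeq2 1.42.0 and other settings were alternatives. Chi-square per degree of freedom between libraries of a group was at least 3.53, so no pair differed by counting error alone. This cannot tell whether libraries came from the same cells or RNA.

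All 10 genes are named; from other lists, up to 3 called genes of largest fold whose higher group mean is at least 5 CPM, and the 5 genes of highest r for likeness. The members and lists were chosen with earlier results of these data known. Promoter sequences are RefSeq's.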

Additional observations from a re-analysis of the deposited data

Results flagged for a closer look

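For 3 of the 10 genes, against 1.63% of all genes tested, the effect of Ezh2 loss differed between FNP, Mx, Md and PA2 by an F test of the interaction, with an adjusted p of 0.00115 for Fos, 0.0122 for Fosb and 0.00277 for Jun. Fos and Fosb had their largest increase in FNP, and Jun rose in Md and PA2, though its PA2 call was lost in 5 of 6 leave-one-library-out fits.

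For 6 of the 10 the change from E10.5 to E11.5 in wild type differed between the subpopulations by the same kind of test. The adjusted p was 0.000765 for Fos, 6.68e-12 for Jun, 0.0432 for Egr1, 0.015 for Atf3, 0.0291 for Dusp1 and 2.4e-07 for Klf4. The call for Egr1 was lost in 13 of 23 leave-one-library-out fits and with DESeq2 (adjusted p = 0.080), that for Dusp1 in 7 of 23 and that for Atf3 in 3 of 23. Both interaction tests, of Ezh2 loss and of stage, use the same E10.5 wild-type libraries, so their calls are not independent.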

How the results depend on the processing

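Alternatives were another scaling, no filter on low counts, DESeq2, a replicate block, only the groups compared, mitochondrial genes left out and each library left out; leaving out the E8.5 and HoxA2OE libraries, or Control and Hoxa2TempMut, was chosen after seeing the data. Counts of genes called moved by over 1.5 times only in Md from E10.5 to E11.5, with 8 in place of 5 when only those groups were fitted, and when 1 library was left out. Those ranges were 0 to 1 for Ezh2cKO in Mx (2 with all), 2 to 3 in Md (4), 0 to 2 in PA2 (3), and 3 to 7 for a stage effect differing between subpopulations (6); each such fit has fewer samples. Across the other 14 comparisons they were 5 to 6 for Ezh2cKO in FNP, 6 to 8 on average, 2 to 4 for its difference between subpopulations, 5 to 6 for Control, 0 for Hoxa2TempMut, 3 to 4 for HoxA2OE, 7 to 8 from E8.5 to E10.5, 6 to 8 from E10.5 to E11.5 on average, 5 to 6 in FNP, 4 to 6 in Mx, 4 to 5 in Md, 3 to 4 in PA2, and 6 to 8 and 4 to 6 between subpopulations at E10.5 and E11.5. When Mx is left with 1 wild-type library, that library is assumed to vary like the other groups.

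Of 88 calls of single genes, 62 held under every alternative, 26 were lost under at least 1, and 0 reversed. The labels do not say whether replicate numbers pair libraries. Deviations of same-numbered libraries correlated above 0.1 in 6 of 20 pairs (from -0.37 to 0.38). Deviations from the means of so few libraries cannot decide whether a litter or day was shared. With the replicate block the counts were unchanged, except 7 in place of 6 for the stage effect differing between subpopulations. Junb and Atf3, at under 5 CPM, are limited by counting error, and the spread between libraries limits Egr1.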
